A study of Mus musculus with 6 samples.

Results

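Genes that build and run the red cell precursor, globins left out, were followed in messenger RNA of mouse bone marrow B220+ cells. The members were given by symbol: erythroid transcription factors, the erythropoietin receptor and iron hormone, proteins of the red cell membrane and of the spectrin skeleton beneath it, and steps of heme synthesis. All 32 were found, 1 row each, among the 27761 genes of the deposited table. The series holds 6 libraries, 3 with the genotype label WT and 3 with the genotype label PELI2 knockout, the latter titled CKO. B220 is a form of CD45 that marks B-lineage cells. Strain, age, sex, the Cre driver of the CKO title, the number of animals per library and any batch are not given in the sources used here. Whether each replicate is an animal of its own is not stated, so p-values measure only the spread between these samples. Below, values of replicates 1 to 3 are given in that order, and knockout stands for the libraries labelled PELI2 knockout. The table does not show a lower level of the targeted gene: Peli2 stood at 2.03, 2.54 and 1.99 FPKM in WT and at 3.07, 2.70 and 2.47 FPKM in knockout, so every direction is that of the label. Values are FPKM, fragments per kilobase of transcript and library size, which can be compared between genes because they are per length. Depth was 16600000 to 18000000 reads per library.

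As background, red cell precursors arise in marrow from progenitors that also give megakaryocytes. Erythropoietin acts through its receptor and the kinase Jak2 on Stat5 to keep them alive, while Gata1, Tal1 and Klf1 switch on genes of the membrane, the skeleton, heme and globin. Such cells do not carry B220 as a lineage marker. The defining markers of both kinds of cell were nevertheless above 0 in every library. Summed over 7 red cell markers, among them the globins Hba-a1 and Hbb-bs and the heme enzyme Alas2, the level ran from 9019.7 to 17596 FPKM. Over 10 B lineage markers, among them Cd79a and Cd79b, it ran from 1521 to 2239 FPKM. Globins made up most of the red cell sum, with WT means of 11302 FPKM for globins and 11503 FPKM for the sum. The 2 sums therefore do not compare numbers of cells. In bulk libraries fewer cells of a type and less RNA per cell cannot be told apart.

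Promoter letters are shown for 4 members, so that the motifs counted over all members can be seen in place: the regulators Klf1 and Gata1, Trim10, the 1 member whose window held each motif searched, and Erfe, the member with the largest difference. RefSeq promoters (GRCm38.p6) matched 25 of the 32 members in 30 windows, each from 250 bases before the start to 50 after it. Ank1, Car1, Car2, Cldn13, Nfe2, Slc4a1 and Xpo7 were not matched. Shown here are the 250 bases before the RefSeq start (for Klf1 the 196 of them that precede its first annotated exon), 5′ to 3′ on the gene's strand, with a match to any motif on either strand in capitals.
Klf1, chr8:84901732-84901927, plus strand: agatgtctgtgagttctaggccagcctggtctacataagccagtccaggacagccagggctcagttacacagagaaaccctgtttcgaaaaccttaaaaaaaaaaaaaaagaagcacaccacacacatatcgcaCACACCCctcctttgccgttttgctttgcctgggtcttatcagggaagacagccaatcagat
Gata1, chrX:7967911-7968160, minus strand: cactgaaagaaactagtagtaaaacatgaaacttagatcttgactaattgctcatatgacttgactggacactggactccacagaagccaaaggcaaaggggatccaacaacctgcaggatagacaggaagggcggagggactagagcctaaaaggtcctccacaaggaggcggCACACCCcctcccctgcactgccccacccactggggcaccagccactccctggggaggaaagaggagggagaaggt
Trim10, chr17:36869324-36869573, plus strand: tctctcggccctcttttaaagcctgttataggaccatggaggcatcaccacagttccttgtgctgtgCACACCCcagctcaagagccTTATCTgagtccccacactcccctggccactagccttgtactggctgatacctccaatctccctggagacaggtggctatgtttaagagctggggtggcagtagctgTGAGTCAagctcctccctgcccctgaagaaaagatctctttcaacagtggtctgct
Erfe, chr1:91366180-91366429, plus strand: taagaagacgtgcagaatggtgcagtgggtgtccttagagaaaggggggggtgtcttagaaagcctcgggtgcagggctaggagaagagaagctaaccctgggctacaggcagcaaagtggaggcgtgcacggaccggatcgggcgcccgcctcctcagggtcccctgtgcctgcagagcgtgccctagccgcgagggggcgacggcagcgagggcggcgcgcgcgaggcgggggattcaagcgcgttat
The motif AGATAA, a form of the site of GATA factors, was found on either strand in 8 of the 30 windows (26.7%) and in 11.2% of all 32851 promoters of the same length. CACACCC, a form of the CACCC box that Klf1 binds, was found in 4 windows (13.3%), those of Klf1, Gata1, Trim10 and Cpox, against 7.95% of all promoters. TGAGTCA, the core of the NF-E2 site and also of AP-1 sites, was found in the windows of Kel and Trim10 (6.67%), against 5.20% of all. None of the 3 was found in the window of Erfe, which says only that these letters are not in it. The Gata1 window lies within the deposited gene span, upstream of an internal annotated exon. A match is a description of letters.

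The members formed a clear order of libraries that did not follow the label alone. Summed over the 32 genes the level was 982, 1279.9 and 1394 FPKM in WT and 1432, 1911 and 1434 FPKM in knockout. WT replicate 1 was the lowest library for 30 of the 32 genes and knockout replicate 2 the highest for 30, whereas over all 12953 genes tested WT replicate 1 was the lowest in 25.9% and knockout replicate 2 the highest in 14.8%. Relative to each gene's own mean over the 6 libraries, the median member lay at -0.54, -0.11 and 0.00 (log2 of FPKM) in WT and at 0.08, 0.51 and 0.03 in knockout. WT replicate 3 and knockout replicates 1 and 3 were thus within 0.08 of each other. Depth was 17800000 reads in WT replicate 1 and 17000000 in knockout replicate 2. The FPKM of all genes summed to 309301 in WT replicate 1, the lowest of the 6 libraries, to 331189 in knockout replicate 2 and to between 320023 and 338098 in the others. The part of depth and of these totals in the order was not tested.

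**Figure D1:**
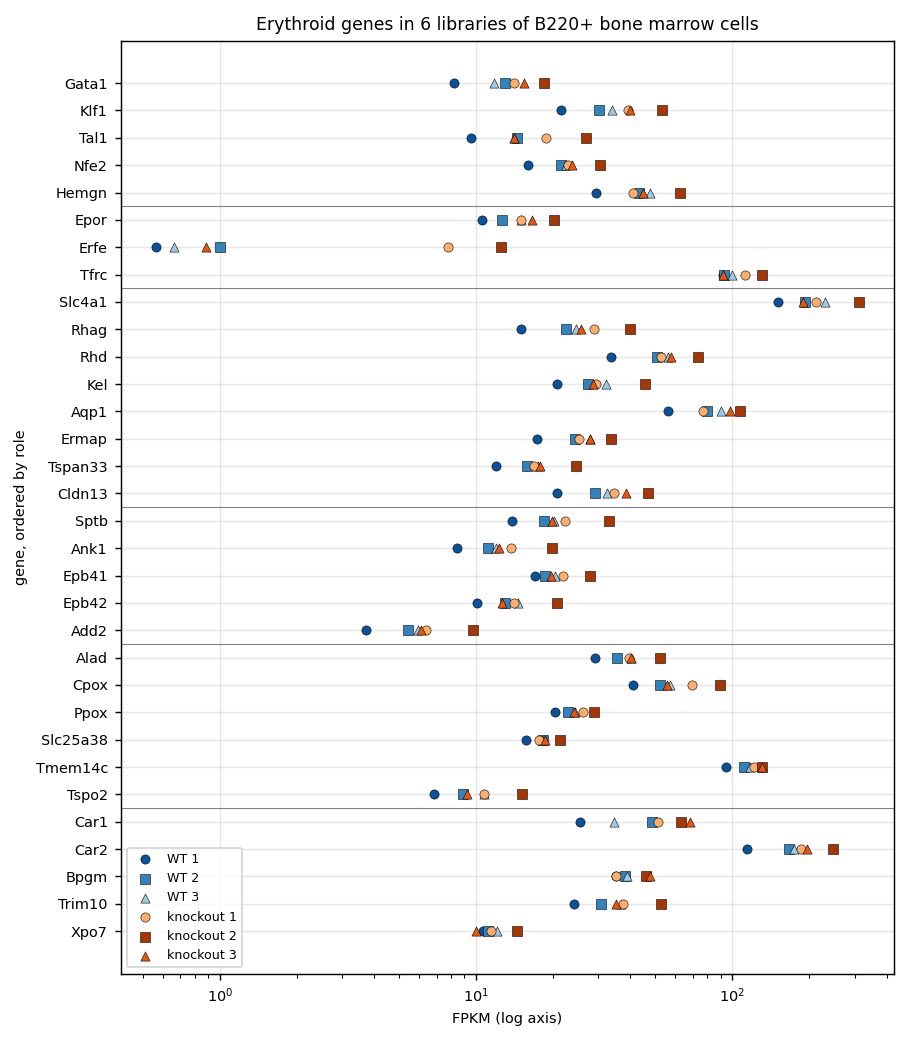
FPKM (log axis) of each of the 32 erythroid genes in the 6 libraries, 1 symbol per library, with rows grouped by role (regulators; hormone, receptors and iron uptake; membrane; skeleton; heme; enzymes and maturation). WT replicate 1 is the leftmost symbol for 30 genes and knockout replicate 2 the rightmost for 30; Erfe is the gene whose knockout libraries lie far apart.

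Compared by label, each of the 32 genes had a higher mean in knockout, where 46.4% of all tested genes did and 53.6% had a lower one (mean of log2(FPKM + 1)). None passed over all genes: 0 of 32 had an adjusted p under 0.05 (limma, Benjamini-Hochberg), against 0.0232% of all tested genes, and the adjusted p of the members ran from 0.188 to 0.844. At an unadjusted p under 0.05, 12 of 32 were higher and 0 lower (limma), where 9.20% of tested genes were higher and 8.88% lower. The groups did not overlap for 10 of 32, all higher, where 11.5% of tested genes were higher and 14.3% lower without overlap. The median difference of the members was 0.36 on the log2(FPKM + 1) scale and that of all tested genes -0.01. Without WT replicate 1, 10 members still did not overlap, where 13.8% of all tested genes were then higher without overlap. The count at an unadjusted p under 0.05 was smaller without the 2 libraries at the ends. There were 5 without WT replicate 1 (median 0.21, 6.65% of tested genes higher) and 2 without knockout replicate 2 (median 0.23, 6.88%). Without both there were 3 (median 0.09, 5.60%), a setting added with the values in view. The count also fell without WT replicate 2, to 7 (median 0.40, 8.91%). Without knockout replicate 3 there were 17 (median 0.45, 7.54%), and without WT replicate 3 also 17 (median 0.49, 9.89%). With the replicate number as a block there were 20 (10.1%). With each library brought to the same total there were 7, and over all genes 726 were then higher and 2331 lower, in place of 1192 and 1150.

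**Figure D2:**
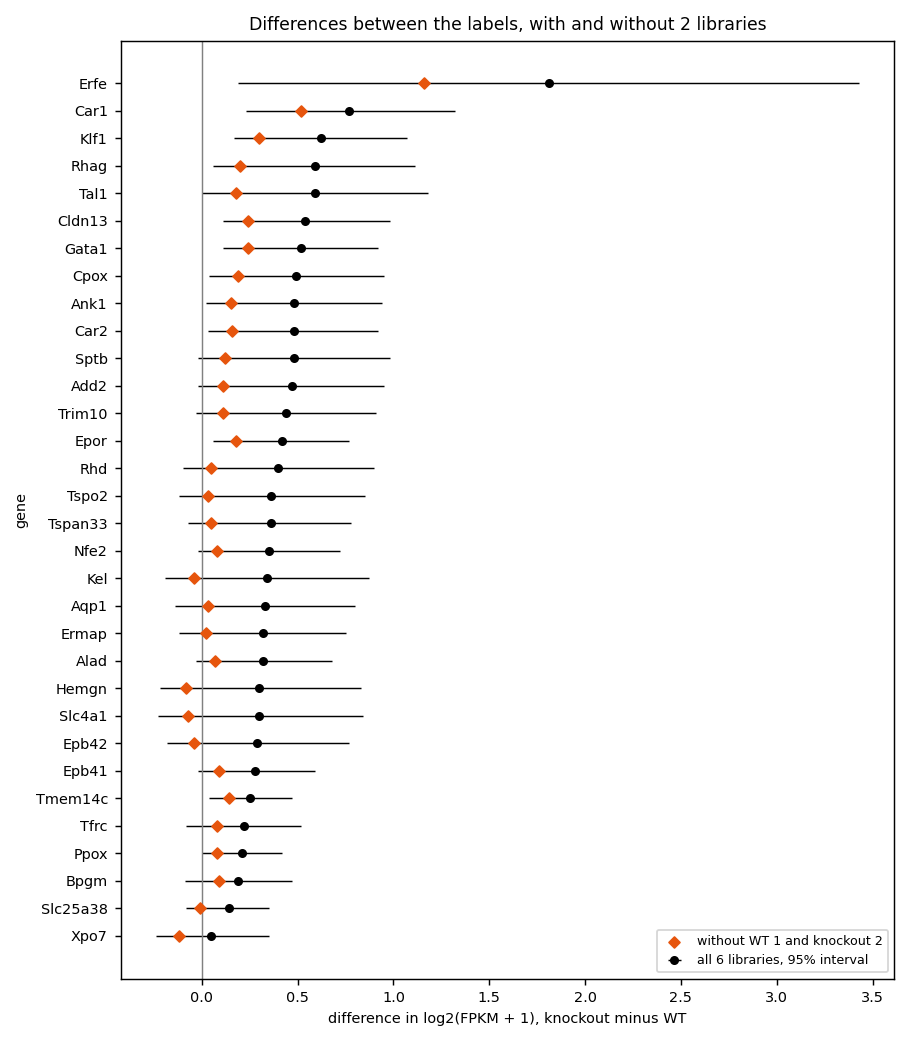
Difference between knockout and WT in log2(FPKM + 1) for the 32 genes, with the 95% interval of the limma fit on 6 libraries (black) and the value without WT replicate 1 and knockout replicate 2 (orange diamonds). With 6 libraries each value is above 0, from 0.05 for Xpo7 to 1.81 for Erfe, and without the 2 libraries 6 genes lie below 0.

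Among the regulators the central pair, Gata1 and Klf1, separated the labels. Gata1 (ENSMUSG00000031162, GRCm38 chromosome X, 7959260 to 7978071), the zinc finger factor without which red cell precursors do not mature, stood at 8.17, 12.9 and 11.7 FPKM in WT and at 14.0, 18.4 and 15.4 FPKM in knockout. Klf1 (ENSMUSG00000054191, chromosome 8, 84901928 to 84905291), the activator of adult beta globin, stood at 21.4, 30.2 and 33.8 FPKM in WT and at 39.2, 53.0 and 39.8 FPKM in knockout. For both genes the lowest knockout library lay above the highest WT library, with differences of 0.52 ± 0.17 (log2, SE; limma adjusted p = 0.216) and 0.62 ± 0.19 (limma adjusted p = 0.197). Nfe2, the blood cell subunit of NF-E2, also did not overlap, but narrowly: its highest WT library stood at 22.5 FPKM and its lowest knockout library at 22.8 FPKM. Tal1, the partner of Gata1 in a shared DNA-binding complex, stood at 9.51, 14.4 and 14.1 FPKM in WT and at 18.8, 26.9 and 14.0 FPKM in knockout, where replicate 3 lay below the highest WT library. Hemgn, a nuclear protein of blood precursors, overlapped, with means of 40.1 ± 9.58 and 49.6 ± 11.5 FPKM (SD, n = 3 per group). Without both end libraries, Klf1 had a difference of 0.30 with an unadjusted p = 0.0112 (limma adjusted p = 0.381) and Hemgn one of -0.08.

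Klf1 also took a larger part of the members' sum. It made up 2.18%, 2.36% and 2.42% of the summed FPKM of the 32 genes in WT and 2.74%, 2.77% and 2.77% in knockout. Rhag, from 1.53% to 1.76% in WT and from 1.79% to 2.08% in knockout, and Cldn13, from 2.10% to 2.33% and from 2.42% to 2.69%, had higher shares without overlap too, while Slc25a38 and Xpo7 had lower ones. The remaining 27 of 32 genes overlapped in their share. For each of the 5 the two-sided exact permutation test gave p = 0.1, the smallest that 3 against 3 libraries allow, and 32 genes were looked at. Relative to the same sum, 0.826% of all tested genes were higher and 41.2% lower without overlap. The sum was itself higher in each knockout library than in any WT library, so a gene that did not rise with it came out lower. These shares are therefore no baseline for the members, which make up the sum.

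The iron hormone Erfe had the widest range of the members, 22.3-fold from the lowest to the highest library. Erfe (ENSMUSG00000047443, chromosome 1, 91366430 to 91374217) encodes erythroferrone, which precursors release under erythropoietin and which lowers hepcidin in the liver, so that more iron is set free. It stood at 0.561, 1.0 and 0.659 FPKM in WT and at 7.78, 12.5 and 0.885 FPKM in knockout. Knockout replicates 1 and 2 were far above every WT library, and knockout replicate 3 lay inside the WT range. On its longest annotated transcript these values are about 28, 47 and 32 reads in WT and 394, 598 and 45 reads in knockout, so counting error is small beside the gap. The difference was 1.81 ± 0.68 (log2, SE; limma adjusted p = 0.245). Without knockout replicate 3 it was 2.65 (limma adjusted p = 0.0254), the 1 call of a member in any setting, and with each other library left out it ran from 1.23 to 1.91 without passing. That setting drops the knockout library inside the WT range, and 16 of all 12953 tested genes were called in it. Erfe passed the expression filter only through knockout replicates 1 and 2 and WT replicate 2. With a filter of 5 FPKM it was not tested, so the call adds no separate support. The end of Erfe overlaps Ilkap on the opposite strand, and strand use in the counting is not stated; Ilkap itself stood between 12.8 and 14.2 FPKM in the 6 libraries.

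Of 12 genes of erythropoietin receptor signalling in the table, Cish shared with Erfe the 2 high libraries, knockout replicates 1 and 2, while the WT libraries stood in another order. Cish, a feedback inhibitor that Stat5 induces, stood at 0.695, 0.525 and 0.885 FPKM in WT and at 2.41, 3.21 and 0.699 FPKM in knockout, about 41 to 72 reads and 59 to 256 reads. Only knockout replicates 1 and 2 exceeded 1 FPKM, so Cish was below the expression filter and was not tested; it was singled out after its values were seen. The receptor Epor had knockout replicate 3 above every WT library and replicate 1 just below the highest: it stood at 10.5, 12.6 and 15.0 FPKM in WT and at 14.9, 20.2 and 16.5 FPKM in knockout, with a difference of 0.42 ± 0.15 (limma adjusted p = 0.230). Among the 11 tested genes of the list 0 were higher and 1 was lower by the unadjusted p (limma, under 0.05), with a median of -0.09. Over all tested genes 9.20% were higher and 8.88% lower, so 1 of 11 is near that share. The lower gene was Lyn, a kinase that B cells also use, at 76.5 and 69.0 FPKM. Socs3, another feedback inhibitor, stood at 14.2 and 17.7 FPKM, and the adaptor genes Gab1 at 1.73 and 2.12 FPKM and Pik3r1 at 18.9 and 17.6 FPKM. Tfrc, the transferrin receptor through which dividing cells take up iron, stood at 91.6, 92.7 and 99.3 FPKM in WT and at 112, 130.3 and 91.6 FPKM in knockout, with overlapping groups.

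**Figure D3:**
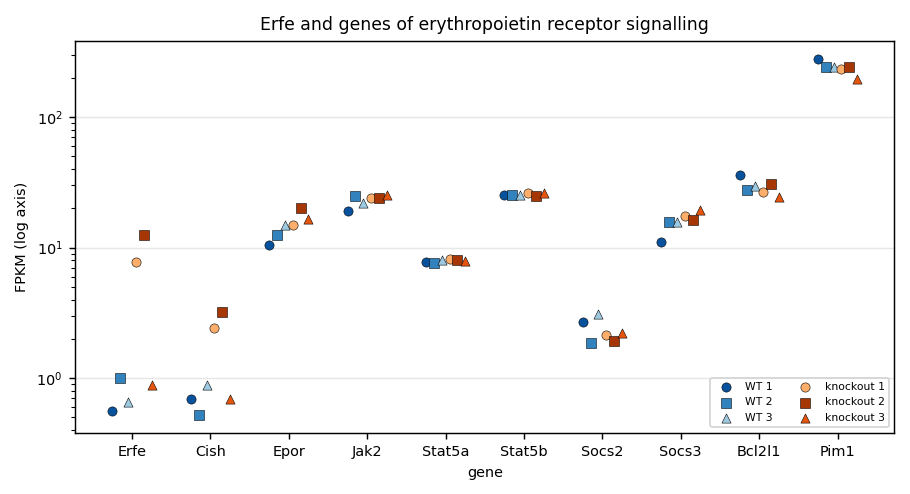
FPKM (log axis) of Erfe, of Cish and of 8 further genes of erythropoietin receptor signalling in each of the 6 libraries, 1 symbol per library. Erfe and Cish are high in knockout replicates 1 and 2 (7.78 and 12.5, 2.41 and 3.21 FPKM) and within the WT range in knockout replicate 3. Of the other genes drawn, Stat5a has both of these replicates above WT and replicate 3 within it, by little (8.13 and 8.06 against at most 8.05 FPKM in WT).

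Of the 8 membrane genes, Rhag and Cldn13 separated the labels and the other 6 overlapped. Over all tested genes 11.5% were higher without overlap, a share that applies to each role. Rhag, the glycoprotein that carries the Rh complex, stood at 15.0, 22.5 and 24.6 FPKM in WT and at 28.8, 39.7 and 25.7 FPKM in knockout (difference 0.59 ± 0.22, limma adjusted p = 0.244). Its lowest knockout library exceeded its highest WT library by little, at 25.7 against 24.6 FPKM. Cldn13, a claudin of mouse red cell precursors, stood at 20.6, 29.0 and 32.5 FPKM in WT and at 34.6, 46.8 and 38.6 FPKM in knockout (difference 0.54 ± 0.18, limma adjusted p = 0.219). The anion exchanger Slc4a1, the most abundant protein of the red cell membrane, had the highest level of the members in most libraries but gave no such separation. It stood at 150.4, 193 and 231 FPKM in WT and at 213, 313 and 189 FPKM in knockout, so that knockout replicates 1 and 3 lay within the WT range. Rhd, the Rh antigen gene, had means of 46.8 ± 11.8 and 61.2 ± 10.8 FPKM, and the Kell peptidase gene Kel 26.8 ± 5.83 and 34.5 ± 9.68 FPKM (SD, n = 3). The water channel Aqp1 had means of 75.3 ± 17.4 and 94.0 ± 15.7 FPKM. Ermap, which carries the Scianna blood group, stood at 23.1 ± 5.36 and 28.8 ± 4.38 FPKM, and the tetraspanin Tspan33 at 15.1 ± 2.79 and 19.7 ± 4.29 FPKM. Without both end libraries, Slc4a1 and Kel had differences of -0.07 and -0.04.

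Of the 5 skeleton genes, each had its lowest value in WT replicate 1 and its highest in knockout replicate 2. Ank1, the ankyrin that ties the anion exchanger to spectrin, stood at 8.42, 11.1 and 12 FPKM in WT and at 13.7, 19.7 and 12.3 FPKM in knockout (difference 0.48 ± 0.19, limma adjusted p = 0.264). Sptb, beta spectrin, stood at 13.8, 18.4 and 20.1 FPKM in WT and at 22.2, 32.9 and 19.7 FPKM in knockout. Add2, the beta adducin that caps actin at the spectrin junctions, had the lowest level of the 5, at 5.03 ± 1.16 and 7.38 ± 2.02 FPKM. In Ank1 and Add2 the groups did not overlap, but knockout replicate 3 exceeded the highest WT library by little, at 12.3 against 12 FPKM and at 6.07 against 5.92 FPKM. Epb41, which stabilises the contact of spectrin with actin, overlapped, at 18.6 ± 1.66 and 23.1 ± 4.17 FPKM. Epb42, which binds the anion exchanger, overlapped as well, at 12.6 ± 2.29 and 15.8 ± 4.29 FPKM. Several of these long genes hold or overlap other annotated genes, Ank1 microRNA genes, an antisense gene and a pseudogene, and Sptb the end of Plekhg3. Reads of those on the opposite strand cannot be told apart without strand. Mir486 and the pseudogene Gm15815 lie on the strand of Ank1, where strand would not separate reads.

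In heme synthesis 1 of 6 genes, Tmem14c, did not overlap, with a small difference. Of all tested genes 11.5% were higher without overlap. Tmem14c, which moves the porphyrin precursor within mitochondria, stood at 94.1, 111 and 117 FPKM in WT and at 122, 131 and 131 FPKM in knockout (difference 0.25 ± 0.09, limma adjusted p = 0.228). Cpox, which makes protoporphyrinogen, stood at 41.1, 52.1 and 57.1 FPKM in WT and at 69.6, 89.4 and 55.8 FPKM in knockout, where replicate 3 lay within the WT range (difference 0.49 ± 0.19, limma adjusted p = 0.250). Ppox, the enzyme of the next step, had means of 22.6 ± 1.98 and 26.3 ± 2.41 FPKM, with overlap. Alad, an early enzyme of the pathway, stood at 35.0 ± 5.59 and 43.9 ± 7.17 FPKM, and the glycine carrier Slc25a38 at 17.3 ± 1.51 and 19.1 ± 1.89 FPKM. Tspo2, a translocator protein of red cell precursors, stood at 8.81 ± 1.93 and 11.7 ± 3.06 FPKM. Slc25a38, Tmem14c, Ppox, Tfrc, Bpgm and Xpo7 varied least, with a highest library of 1.36 to 1.44 times the lowest, where Klf1 had 2.48 and Tal1 2.83.

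The carbonic anhydrase Car1 had the largest difference after Erfe, and Car2 ranked lower. Car1, the form most abundant in red cells, stood at 25.5, 48.5 and 34.4 FPKM in WT and at 51.2, 63.3 and 68.1 FPKM in knockout (difference 0.77 ± 0.23, limma adjusted p = 0.188). Its groups did not overlap, and its highest library was knockout replicate 3, as it was otherwise only for Bpgm. Car2, which many cell types express, stood at 114, 166 and 174 FPKM in WT and at 185, 248 and 195 FPKM in knockout (difference 0.48 ± 0.19, limma adjusted p = 0.255). Bpgm, which makes the phosphate that lowers the oxygen affinity of hemoglobin, stood at 35.0, 38.0 and 38.7 FPKM in WT and at 35.0, 46.0 and 47.6 FPKM in knockout. Trim10, a RING protein of late maturation, stood at 24.0, 30.6 and 36.7 FPKM in WT and at 37.4, 52.7 and 35.0 FPKM in knockout. Xpo7, a nuclear exporter used while the nucleus condenses, had the smallest difference of the 32 genes, 0.05 with a 95% interval of -0.24 to 0.35, and was -0.02 once each library was brought to the same total. Car1 contains a processed pseudogene, Gm16399, whose row stood at 1.10 FPKM or lower.

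Globin messages, which outlast the nucleus in maturing red cells, did not follow the members library by library. Their sum was 8859, 12973 and 12073 FPKM in WT and 13473, 15120.2 and 17351 FPKM in knockout, so that knockout replicate 3 was the highest, not replicate 2. The 32 members together came to 11.1%, 9.87% and 11.5% of the globin sum in WT and to 10.6%, 12.6% and 8.27% in knockout, with overlapping groups (two-sided exact permutation test, p = 0.800). Relative to globin, Car1 was higher and Slc25a38 lower without overlap, and the others overlapped, where 0.540% of all tested genes were higher and 52.7% lower. The globin sum was itself higher in each knockout library than in any WT library, so these shares are no baseline for the members either. The 4 tested globin genes had a median difference of 0.46, and Hba-a1 with Hba-a2 and Hbb-bs with Hbb-bt are near-identical copies whose single values are uncertain.

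Other genes of the red cell programme were counted in lists chosen with earlier results of these data known. Of the 92 tested genes in these lists that are not members, globins included, 0 passed over all genes (limma). At an unadjusted p under 0.05, 20 were higher and 2 lower, against 9.20% and 8.88% of all tested genes. Among 21 tested genes of heme synthesis and iron handling, 7 were higher and 0 lower at that threshold (median 0.26). Alas1, the form of the first enzyme that all cells use, stood at 8.56, 9.48 and 10.3 FPKM in WT and at 14.4, 17.2 and 13.9 FPKM in knockout (limma adjusted p = 0.114). Urod, a later enzyme, stood at 29.7 and 37.4 FPKM on average, the iron sensor Tfr2 at 3.37 and 5.28 FPKM, and the ferritin light chain Ftl1 at 313 and 359 FPKM. Alas2, the erythroid form, named here after its values were seen, overlapped at 115, 146 and 157 FPKM and 149, 191 and 171 FPKM.

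Among 16 other regulators, 3 were higher and 1 lower by the unadjusted p (limma, under 0.05), and the median was 0.01. For this list and the 2 that follow, the shares over all tested genes are 9.20% higher and 8.88% lower. Lmo2, which bridges Tal1 to Gata1, was 1 of the 3, at 48.9 and 61.2 FPKM on average. The others were the repressor Gfi1b at 10.9 and 14.4 FPKM and Mafg, a partner of Nfe2 in NF-E2, at 15.3 and 17.3 FPKM. Myb, which early B cells use as well, was the lower one, at 68.6 and 55.6 FPKM. Among 23 other membrane and skeleton genes 4 were higher and 0 lower (median 0.14), among them Gypc at 19.9 and 28.1 FPKM, Stom at 33.8 and 46.6 FPKM and Cd44 at 31.0 and 35.6 FPKM. Of 17 genes of late maturation 4 were higher and 0 lower (median 0.14), among them Blvrb, Gpx1 and Prdx2. Blvrb, a reductase of red cells, stood at 42.6 and 53.0 FPKM, and the peroxidase Gpx1, which other blood cells share, at 372 and 488 FPKM. Prdx2, another peroxidase, stood at 77.5 and 99.2 FPKM.

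Summed markers of other marrow cells also differed between the libraries. The sum of 16 neutrophil and granulocyte markers was 7504, 10423 and 9919 FPKM in WT and 11951, 12924 and 13978 FPKM in knockout, without overlap. By the unadjusted p (limma, under 0.05) 11 of 16 were higher and 0 lower, where 9.20% of all tested genes were higher and 8.88% lower. The 10 B lineage markers went the other way, at 2239, 1876 and 1922 FPKM in WT and 1534, 1521 and 1605 FPKM in knockout, with 0 higher and 7 lower against the same shares. WT replicate 1, the lowest library for the members, was thus also the lowest for neutrophil markers and the highest for B lineage markers. The 12 monocyte markers ran from 206 to 332 FPKM in WT and from 301 to 412 FPKM in knockout. None of the markers in these lists was at 0 in all libraries, and their part in the members' differences was not tested. Gata1, Tal1 and Nfe2 also serve megakaryocytes, and Gata1 and Tal1 mast cells. The 12 megakaryocyte markers summed to 45.4, 66.3 and 53.3 FPKM in WT and 40.3, 49.6 and 86.3 FPKM in knockout, and the 8 mast cell and basophil markers to 58.7, 131 and 84.7 FPKM and 70.7, 75.0 and 118 FPKM. In both lists the groups overlapped, and knockout replicate 2, the highest library for the members, was not the highest.

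**Figure D4:**
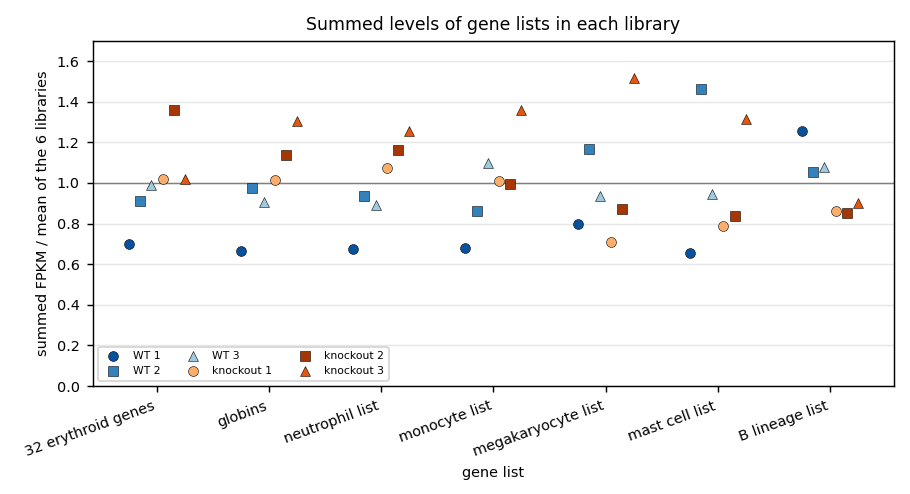
Summed FPKM of each gene list in each library, divided by the mean of the 6 libraries, so that 1 is the average library. WT replicate 1 is lowest for the 32 erythroid genes (982 FPKM), for globins and for neutrophil genes and highest for the B lineage list (2239 FPKM), while knockout replicate 2 is highest for the 32 genes and knockout replicate 3 for globins and neutrophil genes.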

How the data were processed

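Messenger RNA of 6 libraries was purified with oligo(dT) beads and read as single ends of 50 bases, per the labels' protocols. The authors deposited 1 table of FPKM per gene and library, with no scaling across libraries stated. The submitters' processing notes list RSEM 1.2.12, Bowtie2 2.2.5, DESeq2 1.4.5, HISAT2 2.0.4 and GRCm38.p6 without saying what each was used for. Library totals were worked out from the steps between low values of genes with 1 transcript in GENCODE M21: 99.3% to 99.5% of values under 6 reads were whole within 0.03 reads. A gene entered the fit if 3 libraries or more reached 1 FPKM (12953 genes); log2(FPKM + 1) was then fitted by limma 3.58.1 under R 4.3.3 (lmFit, eBayes with a trend, two-sided, Benjamini-Hochberg adjustment), as FPKM are not counts. The log2 scale understates the change of low genes. The fit was tested on simulated data. All 32 members passed the filter. The members and lists were chosen with earlier results of these data known. All members are named; of each other list, up to 4 genes with the smallest p, of which some are not reported here. Single values used two-sided exact permutation tests. Alternatives were median-of-ratios scaling, a stricter filter (5 FPKM) or none, other pseudocounts (0.1, 0.5), a common total of 1000000 with and without globin and immunoglobulin rows, library weights, eBayes without a trend, quantile normalization, the replicate number as a block, and each library left out; leaving out 2 libraries together was added after seeing the data. Epo, Icam4, Hbb-b1, Hbb-b2 and Hbb-bh1 have no row in the table under these symbols. Python 3.11.15 with matplotlib 3.10.9 drew the figures.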

Additional observations from a re-analysis of the deposited data

How the results depend on the processing

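The members' median difference kept its sign in each setting, from 0.21 to 0.49 with 1 library left out, and it was 0.09 without WT replicate 1 and PELI2_knockout replicate 2 together. With 1 library left out, members higher at an unadjusted p under 0.05 ranged from 2 to 17 (limma, 12 with all libraries), those without overlap from 10 to 22 (from 13.8% to 18% of all tested genes were then higher without overlap, and 11.5% with all libraries), and those past the adjusted threshold from 0 to 1. Of 92 other erythroid genes, from 6 to 25 were higher and from 1 to 4 lower at the unadjusted threshold. Of all tested genes 6.65% to 9.89% were then higher and 5.34% to 9.65% lower. All genes called ranged from 2 to 16, the highest without PELI2_knockout replicate 3. Without both end libraries 3 members and 9 other erythroid genes were higher, with 5.60% of all tested genes. With a common total 7 members were higher, and 12 other erythroid genes were higher and 6 lower. Other erythroid genes lower were 1 with a filter of 5 FPKM, with median-of-ratios scaling, without a trend and with library weights, and 4 with quantile normalization, where 2 were lower in the main fit. In these settings 7.20% to 11.3% of all tested genes were lower, and 8.88% in the main fit. All genes called were 1 with a filter of 5 FPKM and 6 without a trend. With the replicate block 20 members were higher at an unadjusted p under 0.05, 0 passed the adjusted threshold and 4 genes were called. Same-numbered libraries deviated together with r = 0.101, 0.0362 and 0.0901, and differently numbered ones with r from -0.107 to 4.53e-05. The same-numbered values were thus the higher ones, though small. The labels give replicate numbers but name no pairs, so the main fit used none. Whether the numbers mark pairs was not settled. Xpo7 turned to -0.02 with a common total and to -0.08 without PELI2_knockout replicate 2, and ranged up to 0.17 (without PELI2_knockout replicate 3). Without both end libraries the differences were -0.08 for Hemgn, -0.07 for Slc4a1, -0.04 for Kel and for Epb42, -0.01 for Slc25a38 and -0.12 for Xpo7. The cause of these changes was not tested. In 4 libraries the values of Erfe and Cish rest on few reads.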

Other observations

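Within 100 kb of Erfe on chromosome 1, none of the other 11 genes with a row had knockout replicates 1 and 2 both above every WT library: Scly stood at 7.15, 6.88 and 8.55 FPKM in WT and at 8.47, 8.42 and 7.63 FPKM in knockout, Ube2f at 3.78, 4.08 and 4.41 FPKM and at 4.18, 4.46 and 4.20 FPKM, and Per2 at 2.94, 3.76 and 3.34 FPKM and at 3.15, 3.57 and 3.33 FPKM. Hes6 was lower without overlap, at 91.5, 74.7 and 76.8 FPKM in WT and at 72.1, 66.3 and 66.1 FPKM in knockout (limma adjusted p = 0.236). Of all tested genes 14.3% were lower without overlap. These neighbours were chosen after the values of Erfe were seen.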
